A study of Mus musculus with 13 samples.

Results

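The genes described here are 10 circadian clock genes, chosen by name: the activators Arntl and Clock, the repressors Per1, Per2, Per3 and Cry1, the REV-ERB receptor genes Nr1d1 and Nr1d2, and the output factors Dbp and Nfil3. They are 10 of the 32285 genes measured, and all were found in the colon cells of both conditions. The cells were sorted epithelial cells of whole mouse colons, read by droplet-based single-cell RNA sequencing. The germ-free condition was a single pool of cells from germ-free C57BL/6J mice, which are reared without microbes, and the antibiotic condition was a single pool from wild type C57BL/6J mice treated with antibiotics. Both groups therefore lack a normal gut flora, and mice with an intact flora were not analysed here. The sort took EPCAM-positive, CD45-negative cells with equal numbers of CD44-positive and CD44-negative cells, per the labels' protocols. The antibiotics used, the number of mice in a pool, their ages and the hour of collection are not given in the labels.

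In mammals the clock is a feedback loop. BMAL1 (the product of Arntl) and CLOCK bind E-box elements and switch on the Per, Cry and Nr1d genes. PER and CRY proteins then block BMAL1 and CLOCK, while REV-ERB proteins, made from Nr1d1 and Nr1d2, repress Arntl, Cry1 and Nfil3 through sites shared with the ROR activators. Transcripts of most of these genes oscillate over the day in colon epithelium, with feeding, glucocorticoids and microbial products among the known inputs. In small intestinal epithelium of mice, Nfil3 is known as a link from microbes through REV-ERB alpha to lipid uptake. A snapshot of clock transcripts depends on the hour at which tissue was taken. Each condition was a single pool, and the labels put each in a batch of its own, so condition, batch and hour of collection cannot be told apart in any comparison of germ-free with antibiotic cells, and no test was possible.

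The motifs of this loop were looked for in RefSeq promoter windows (GRCm38.p6) that run from 250 bases before to 50 bases after a start site. Windows were given for 9 of the 10 genes, all but Per2. Clock had 3 windows, Arntl and Per1 had 2 each and the others 1. That made 13 windows for the 9 genes, against 32851 windows for all 27025 genes with a window. A gene counted as matched if any of its windows matched, so genes with more windows had more room for a match. The letters CACGTG (E-box) were found in the windows of 2 of the 9, Per1 and Cry1, against 8.09% of all genes with a window. CACGTT, a variant of the E-box, was in 2 of 9 (Cry1 and Nr1d1), against 5.44% of all genes. TTATGTAA, the D-box that DBP and NFIL3 bind, was in 1 of 9, against 1.11%, and Per3 held 2 copies. AGGTCA, the half-site of the REV-ERB and ROR receptors, was in 5 of 9 (Per1, Arntl, Clock, Nr1d2 and Nfil3), against 18.1%. Both strands were searched, and no match overlapped another in the stretches shown. Stretches with a match are printed below for 6 genes whose levels the results compare. They run 5′ to 3′ on the gene's strand, with the matches in capitals (AACGTG and TGACCT are the E-box variant and the half-site read from the other strand). They lie at chr11:69098759-69098838 (plus strand, Per1), chr10:85185095-85185154 (minus, Cry1), chr11:98775378-98775437 (minus, Nr1d1), chr14:18239147-18239206 (minus, Nr1d2), chr4:151044806-151044885 (minus, Per3) and chr13:52981040-52981099 (minus, Nfil3). A match is a run of letters and was not tested as a binding site.
Per1: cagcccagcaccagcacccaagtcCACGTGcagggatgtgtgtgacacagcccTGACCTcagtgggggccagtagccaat
Cry1: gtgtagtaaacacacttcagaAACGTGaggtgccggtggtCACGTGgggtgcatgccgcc
Nr1d1: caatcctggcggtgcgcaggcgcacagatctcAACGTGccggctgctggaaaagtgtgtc
Nr1d2: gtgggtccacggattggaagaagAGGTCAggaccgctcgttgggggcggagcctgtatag
Per3: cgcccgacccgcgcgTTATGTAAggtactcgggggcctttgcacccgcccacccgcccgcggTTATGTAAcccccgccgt
Nfil3: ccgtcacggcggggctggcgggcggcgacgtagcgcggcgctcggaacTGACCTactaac

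Cell names divide the cells into germ-free cell sets 3 and 4 and antibiotic cell sets 1, 2 and 3. The cell sets of a condition are parts of a single pool and not replicates of the condition. Cell sets that lie apart therefore say nothing about the spread between mice. The antibiotic cell sets shared cell barcodes: 315 between sets 1 and 2, 501 between sets 2 and 3 and 48 between sets 1 and 3, while no barcode was shared with or between the germ-free sets. The shallower cell of such a barcode held a median of 9.30% of the UMI (unique molecule counts) of the deepest one, and a median of 89.5% of its genes were also found there, against 63.0% in another cell of like depth. These 837 shallower cells, 24.5% of 3415 antibiotic cells but 3.40% of their UMI, were left out of the values below. That left 768 germ-free cells with 3100880 UMI and 2578 antibiotic cells with 35287816 UMI. Median UMI per cell were 1045 and 4682 in the germ-free sets, against 7186 to 12997 in the antibiotic sets. Mitochondrial genes took 18.7% of germ-free and 12.4% of antibiotic UMI, and the nuclear transcripts Gm42418, AY036118 and Lars2 took 5.02% and 10.4%. Colonocyte markers summed to 10945 CPM (UMI counts scaled to a total of 1000000) in germ-free cells, with sets at 10652 to 10988 CPM, and to 18172 CPM in antibiotic cells, with sets at 17506 to 18931 CPM. Goblet markers summed to 6347 CPM in germ-free cells (5955 to 8970) and 1705 CPM in antibiotic cells (1641 to 1763), and crypt markers to 966 CPM (950 to 1072) and 628 CPM (553 to 723). Tuft markers summed to 9.03 CPM in germ-free cells, with 3 of 8 at 0, and 25.8 CPM in antibiotic cells, and enteroendocrine markers to 19.7 and 8.98 CPM. The pools thus differed in these marker sums, and the part of cell makeup in the differences between whole pools was not tested. Immune markers summed to 2.48 to 5.93 CPM in the germ-free sets and 4.76 to 8.44 CPM in the antibiotic sets, with 6 of 8 and 3 of 8 at 0. Stromal markers summed to 2.97 to 4.96 CPM and 3.12 to 4.09 CPM, with 6 of 8 and 2 of 8 at 0.

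Between the conditions, the REV-ERB genes were lower in germ-free than in antibiotic cells, while the activators Arntl and Clock were at close levels. Nr1d1 was 2.29-fold lower in germ-free cells and Nr1d2 1.65-fold lower, and in both genes the 2 germ-free cell sets lay below all 3 antibiotic cell sets. Per2, Per3 and Dbp also lay lower in both germ-free sets, at few UMI, whereas Per1, Cry1, Clock, Arntl and Nfil3 overlapped between the conditions. Of the 10 genes, 8 were ranked, meaning at least 100 UMI over both conditions and 20 CPM in the higher one. A single one of the 8, Nr1d1, was at least 2-fold lower with its cell sets apart, against 1.82% of the 6357 ranked genes, and none was 2-fold higher, against 1.57%. At any size, 3 of the 8 (Nr1d1, Nr1d2 and Per2) were lower with cell sets apart, against 24.3% of ranked genes, and none was higher, against 28.9%, although 1 or 2 were higher under 8 of the alternatives. Per2 was ranked through antibiotic cells alone, at 20.4 CPM against 13.5 CPM in germ-free cells, so its place in this count rests in part on the filter. The median log2 ratio, germ-free over antibiotic on the log2(CPM + 1) scale, was -0.17 over the 8 and 0.05 over all ranked genes. The 3 of 8 lower genes are therefore not far from the share among all ranked genes.

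**Figure D1:**
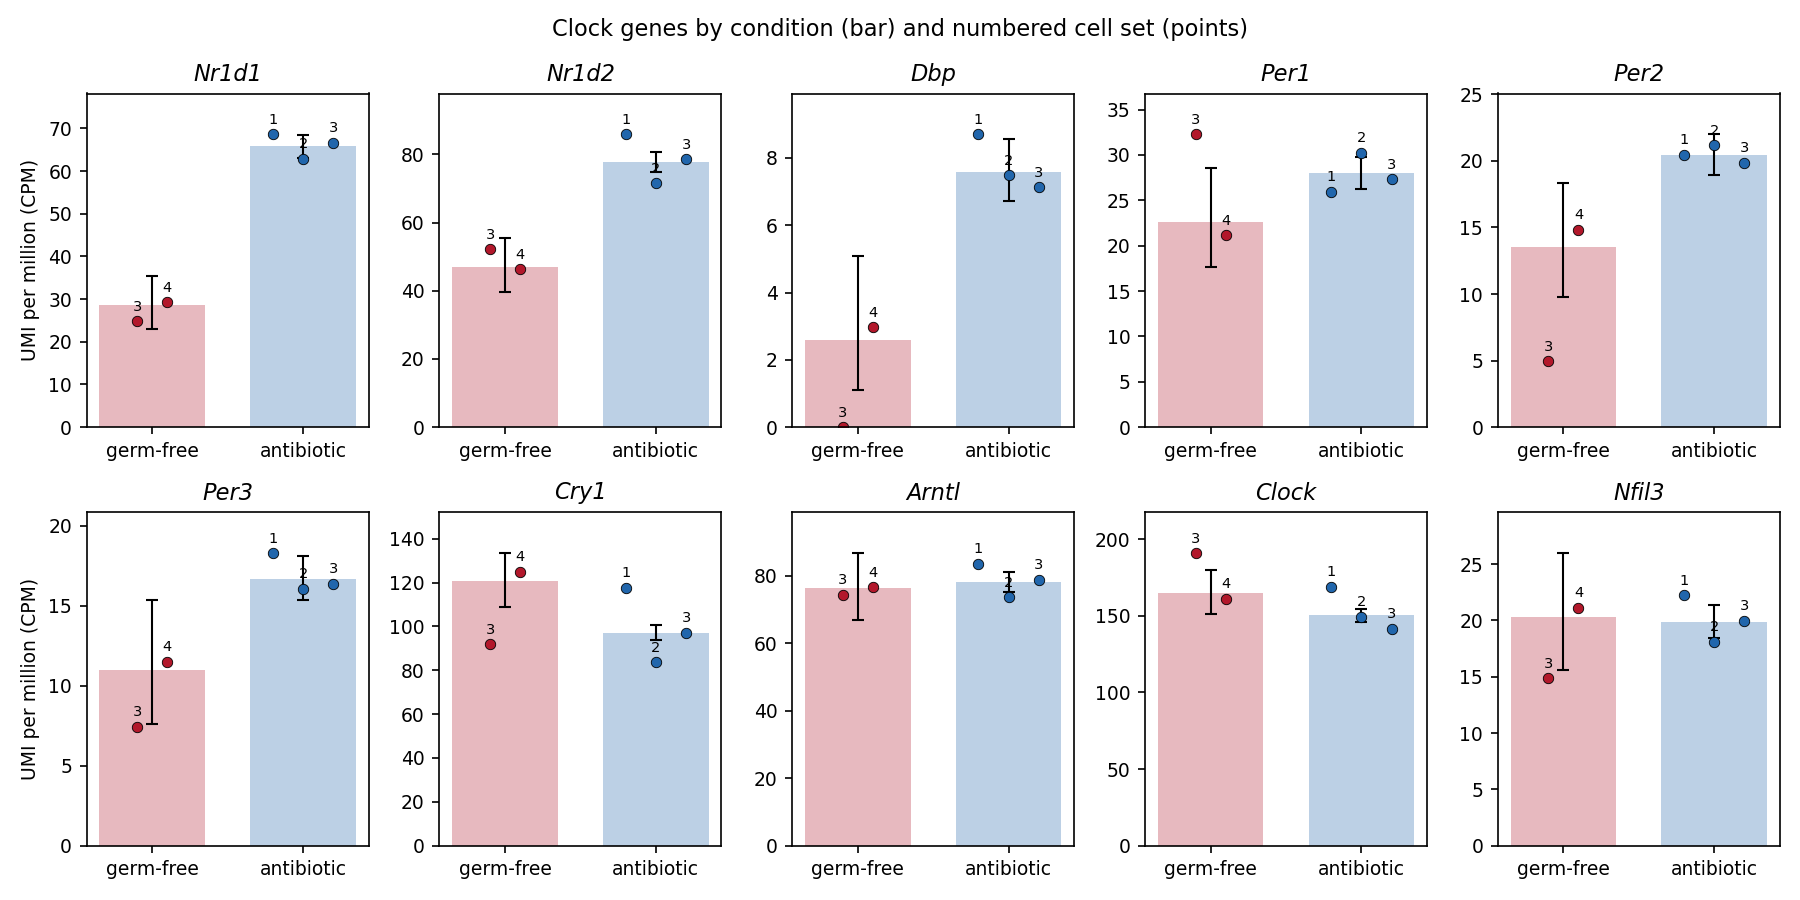
Level of each clock gene in CPM (vertical axis, own scale per gene) in germ-free cells (red) and antibiotic cells (blue). Bars are the pooled level with its 95% Poisson interval, which covers counting error only, and numbered points are the cell sets; Nr1d1 sits at 24.8 and 29.3 CPM in germ-free sets and between 62.9 and 68.6 CPM in antibiotic sets.

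Arntl (7:113207465-113314126, plus strand, mm10) encodes BMAL1, the partner of CLOCK. It was at 74.4 and 76.7 CPM in germ-free sets 3 and 4, against 83.6, 73.6 and 78.9 CPM in antibiotic sets 1, 2 and 3. The sets overlapped, and the ratio was 0.978 with an interval of 0.852 to 1.12, all intervals of ratios being 95% and for counting error only. Clock (5:76209868-76304792, minus strand) had 191 and 161 CPM in the germ-free sets and 169, 150 and 142 CPM in the antibiotic sets. These overlapped as well, at a ratio of 1.10 (1.00 to 1.20). The positive limb therefore showed no separation of the conditions in whole pools.

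Nr1d1 (11:98767932-98775333, minus strand) encodes REV-ERB alpha, a heme-binding nuclear receptor that represses transcription. It had 24.8 and 29.3 CPM in germ-free sets 3 and 4, against 68.6, 62.9 and 66.6 CPM in antibiotic sets 1, 2 and 3. Every germ-free value was below every antibiotic value by a wide gap. The pooled levels were 28.7 CPM from 89 UMI in germ-free cells and 65.8 CPM from 2322 UMI in antibiotic cells. The log2 ratio was -1.17, and the 2.29-fold lower level had an interval of 1.85 to 2.87. It placed Nr1d1 at the 1.20 percentile of ranked genes. The 2-fold limit was missed, at a log2 ratio of -0.996, when cells with at least 1000 UMI and at most 15% mitochondrial UMI were used, a filter that kept 199 germ-free and 1385 antibiotic cells. With every cell thinned to 1000 UMI the log2 ratio was -1.53, and with the colonocyte, goblet and crypt gates described below at equal weight it was -1.35.

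Nr1d2 (14:18204054-18239127, minus strand) encodes the related receptor REV-ERB beta. It had 52.1 and 46.3 CPM in the germ-free sets, against 85.8, 71.6 and 78.6 CPM in the antibiotic sets. The sets did not overlap, and the level was 1.65-fold lower in germ-free cells (1.40 to 1.97), at the 4.09 percentile. Nr1d1 shares 1075 bases with Thra, a thyroid hormone receptor gene on the opposite strand, and the sources used here do not say whether counting used strand, so reads of that stretch cannot be told apart. Thra had 39.7 and 58.6 CPM in the germ-free sets and 60.9, 59.5 and 60.4 CPM in the antibiotic sets, a pooled log2 ratio of -0.10.

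The Per genes encode the PERIOD repressors. Per1 (11:69095217-69109960, plus strand) had 32.3 and 21.1 CPM in the germ-free sets and 26.0, 30.3 and 27.3 CPM in the antibiotic sets. Its germ-free sets lay on either side of the antibiotic ones, at a ratio of 0.806 (0.623 to 1.03) that turned to a log2 ratio of 0.20 without germ-free cell set 4. Per2 (1:91415982-91459324, minus strand) had 4.96 and 14.8 CPM in germ-free sets and 20.5, 21.2 and 19.9 CPM in antibiotic sets. The lowest of these values is 2 UMI, under the 7.44 CPM that 3 UMI make in germ-free set 3. Both germ-free sets were lower, with a pooled log2 ratio of -0.56 that ran from -1.85 without germ-free cell set 4 to 0.17 in the stricter cells, a change of direction. Per3 (4:151003652-151044665, minus strand) had 7.44 and 11.5 CPM in germ-free sets, from 3 and 31 UMI, against 18.3, 16.1 and 16.4 CPM in antibiotic sets. It stayed under 20 CPM in both conditions and was not ranked. Its log2 ratio of -0.56 was -1.07 without germ-free cell set 4. All of Per3 lies within the annotated span of Camta1 on the same strand, which had 30.3 CPM in germ-free and 26.8 CPM in antibiotic cells.

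Cry1 (10:85131700-85185064, minus strand) encodes cryptochrome 1, the partner of PER proteins and a strong repressor of BMAL1 and CLOCK. It was at 91.8 and 125 CPM in germ-free sets and 118, 83.7 and 97.1 CPM in antibiotic sets. The sets overlapped although the pooled ratio was 1.24 (1.11 to 1.38). Without germ-free cell set 4, its log2 ratio of 0.31 was -0.08. With the gates at equal weight it was 0.66, and Cry1 was then higher with cell sets apart.

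Dbp (7:45705088-45710203, plus strand) and Nfil3 (13:52967209-52981073, minus strand) encode factors that compete for D-boxes, DBP as an activator and NFIL3 as a repressor. Dbp was found as 0 and 8 UMI in germ-free sets 3 and 4 (0 and 2.97 CPM), against 68, 88 and 112 UMI in antibiotic sets 1, 2 and 3 (8.70, 7.48 and 7.13 CPM). All germ-free values were lower, but a count of 0 in set 3 allows up to 7.44 CPM, which is within the antibiotic range. The pooled level was 2.94-fold lower in germ-free cells with a wide interval, 1.47 to 6.89, and Dbp was too low to be ranked. Without germ-free cell set 4 no UMI of Dbp remained in germ-free cells. Dbp overlaps 737 bases of Sphk2 on the opposite strand, and Sphk2 itself had 18.4 CPM in germ-free and 30.5 CPM in antibiotic cells. Nfil3 had 14.9 and 21.1 CPM in germ-free sets and 22.3, 18.1 and 19.99 CPM in antibiotic sets, which overlapped, at a ratio of 1.02 (0.777 to 1.32). The Dbp to Nfil3 UMI ratio was 0.127 (0.0525 to 0.266) in germ-free and 0.382 (0.331 to 0.441) in antibiotic cells.

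**Figure D2:**
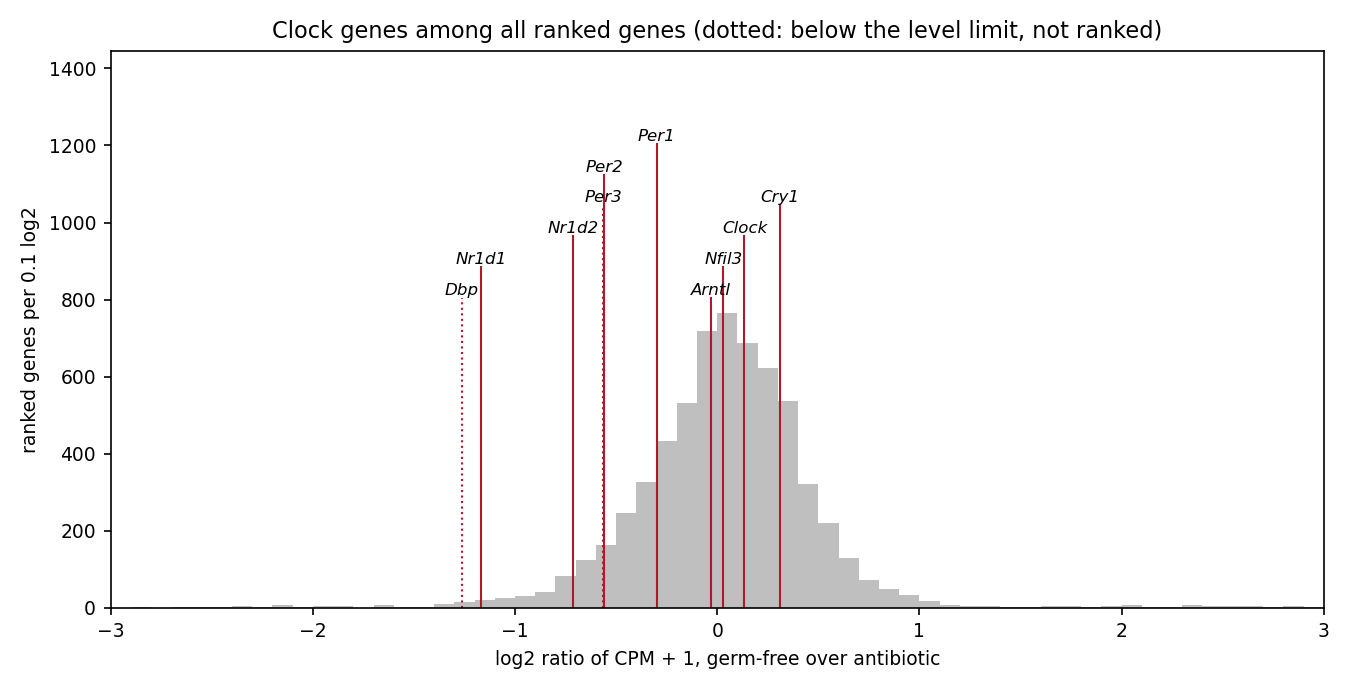
Log2 ratios of CPM + 1, germ-free over antibiotic (horizontal axis), for the 6357 ranked genes in bins of 0.1 (grey) with the clock genes as red lines. Nr1d1 at -1.17 and Nr1d2 at -0.71 lie in the lower tail, Arntl, Nfil3 and Clock lie near 0, and dotted lines mark Dbp and Per3, which were not ranked.

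The level of a repressor relative to Arntl does not depend on how a pool is scaled. Nr1d1 had 0.376 UMI for each UMI of Arntl in germ-free cells (0.291 to 0.481), against 0.842 in antibiotic cells (0.796 to 0.890). By cell set the ratio was 0.333 and 0.382 in germ-free sets 3 and 4, against 0.820, 0.855 and 0.844 in antibiotic sets 1, 2 and 3. No germ-free interval reached an antibiotic one. Nr1d2 gave 0.616 (0.498 to 0.760) in germ-free and 0.996 (0.944 to 1.05) in antibiotic cells, with the interval of germ-free set 3 wide enough to hold the antibiotic values. Cry1 gave 1.58 (1.34 to 1.86) in germ-free and 1.24 (1.18 to 1.31) in antibiotic cells, and there germ-free set 3 lay among the antibiotic sets.

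**Figure D3:**
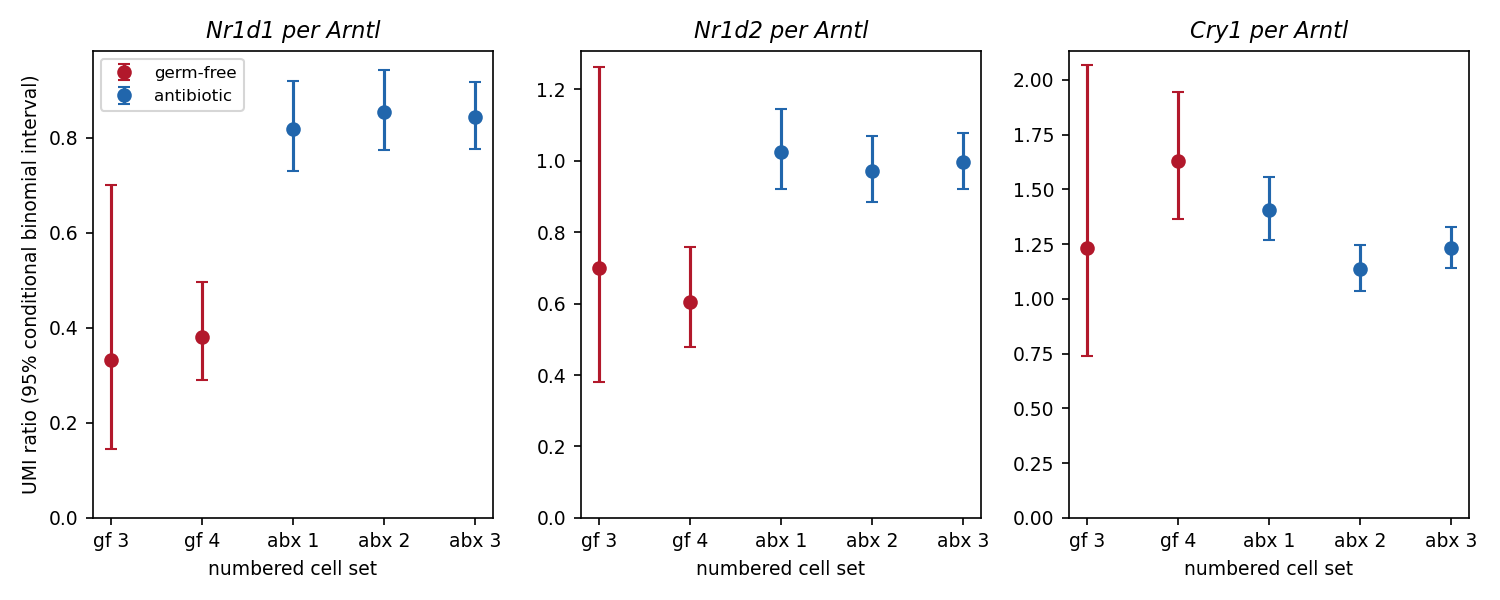
UMI of Nr1d1, Nr1d2 and Cry1 for each UMI of Arntl (vertical axes) in the germ-free cell sets (gf, red) and the antibiotic cell sets (abx, blue), with 95% conditional binomial intervals for counting error. For Nr1d1 the germ-free sets lie at 0.333 and 0.382 and the antibiotic sets at 0.820 to 0.855.

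The same order of the Nr1d1 levels was seen in the share of cells with a UMI at equal depth. With each cell thinned to 1000 UMI, which left 625 germ-free and 2444 antibiotic cells and left out 143 and 134 shallower ones, 2.24% of germ-free cells (exact Clopper-Pearson interval 1.23% to 3.73%) and 6.18% of antibiotic cells (5.26% to 7.21%) held Nr1d1. Before thinning the shares were 10.0% and 40.7%, at median depths of 2874 and 10026 UMI. Clock was found in 15.0% of germ-free and 14.3% of antibiotic cells after thinning, and Cry1 in 10.7% and 8.27%. Arntl was found in 5.60% and 8.22%, lower in germ-free cells although its CPM were close. Every class of colon cell may use clock genes, so no cell type could serve as a background for free RNA.

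To compare cell types, cells were gated by markers of colonocytes, goblet cells and crypt cells, none of them a clock gene. The colonocyte gate held 257 germ-free and 912 antibiotic cells, the goblet gate 108 and 358, and the crypt gate 155 and 475, while 248 and 833 cells stayed ungated. Of all 3346 cells, 234 (6.99%) lay within 0.05 of a cut. In antibiotic cells the colonocyte markers summed to 33262 CPM in the colonocyte gate and 3407 CPM in the crypt gate, and the crypt markers to 211 and 2002 CPM. The goblet markers summed to 46349 CPM in the germ-free goblet gate against 14814 CPM in the antibiotic one, so cells of this gate differed in marker level between the conditions. The median over cells of this gate was 31389 CPM in germ-free and only 4281 CPM in antibiotic cells. Many antibiotic cells of the goblet gate thus had a goblet marker level well under the pooled one. Goblet cells below means cells of this gate. Tuft markers reached 237 CPM in the crypt gate of antibiotic set 3 and 11.5 to 33.1 CPM in the other sets, and their part in the crypt values was not tested.

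Within the antibiotic pool, which is the deeper one, Clock and Cry1 ran in opposite directions from crypt to colonocyte. Clock was at 91.1 CPM in colonocyte-gated cells (86.6 to 95.9), against 282 CPM in crypt-gated cells (269 to 295). This was 3.09-fold lower in colonocytes, and the direction was the same in all 3 cell sets. Cry1 was at 121 CPM in colonocyte-gated cells (115 to 126), against 37.9 CPM in crypt-gated cells (33.2 to 43.0). It was 3.19-fold higher in colonocytes (2.78 to 3.66), at the 94.9 percentile of ranked genes. Per1 was lower in colonocytes too, at 16.8 against 40.9 CPM, as was Per2 at 11.6 against 25.2 CPM. Arntl, Nr1d1 and Nr1d2 differed little, at 70.6 against 75.1 CPM, 64.7 against 66.0 CPM and 72.4 against 68.5 CPM. Of 9 ranked clock genes, 1 was at least 2-fold higher in colonocytes, against 10.0% of ranked genes, and 3 were 2-fold lower, against 26.6%. Of the lower ones, Per1 and Per2 reached the 20 CPM limit in the crypt gate alone, so this count rests in part on the filter. Per3 and Nfil3, lower by less than 2-fold, were also ranked through the crypt gate alone. The median of all ranked genes was itself shifted, at a log2 ratio of -0.40, so a lower level in colonocytes was common, and Clock stood at the 13.2 percentile. Per2 was under 2-fold without antibiotic set 1, at a log2 ratio of -0.89.

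In antibiotic cells Per2 and Per3 were highest in the goblet gate in all 3 cell sets, while Per1 in goblet cells was above colonocytes but close to crypt cells. Per2 was at 42.4 CPM in goblet cells (35.7 to 50.1), against 11.6 CPM in colonocytes (9.96 to 13.3) and 25.2 CPM in crypt cells (21.5 to 29.5). Per1 was at 46.1 CPM in goblet cells, against 16.8 CPM in colonocytes and 40.9 CPM in crypt cells, and the goblet and crypt intervals overlapped. In antibiotic set 1 Per1 was at 39.8 CPM in goblet cells and 43.4 CPM in crypt cells, the other way round, and its log2 ratio of goblet over crypt was -0.03 when each cell had equal weight. Per3 had 26.3 CPM in goblet cells, 11.7 CPM in colonocytes and 20.04 CPM in crypt cells, again with overlap of goblet and crypt. Nfil3 ran the same way, at 32.7 CPM in goblet cells, 15.0 CPM in colonocytes and 21.8 CPM in crypt cells. Goblet over colonocyte, 4 of the 9 ranked clock genes (Per1, Per2, Per3 and Nfil3) were at least 2-fold higher, against 21.3% of ranked genes, and none was 2-fold lower, against 12.3%. All 4 reached the 20 CPM limit in the goblet gate alone, so the count rests in part on the filter. The median of all ranked genes was also shifted, at a log2 ratio of 0.26. Nfil3 was under 2-fold with means of per-cell values, at a log2 ratio of 0.81. Goblet over crypt, none was 2-fold higher or lower, against 4.59% and 5.94% of ranked genes, and Clock came closest, at a log2 ratio of -0.97. With a stricter gate margin Clock was at -1.19 and Cry1 at 1.10, both past 2-fold. Dbp, not ranked, had 2.14 CPM in goblet cells, 11.0 CPM in colonocytes and 4.26 CPM in crypt cells.

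The order of Clock and Cry1 over the gates was also seen in the germ-free pool. Clock was at 121 CPM in colonocyte-gated cells (102 to 143), 146 CPM in goblet-gated cells (110 to 191) and 249 CPM in crypt-gated cells (214 to 287). It was lower in colonocytes than in crypt cells in both germ-free sets. Cry1 was at 162 CPM in colonocytes (140 to 187), 108 CPM in goblet cells (77.4 to 148) and 85.9 CPM in crypt cells (66.3 to 110). Goblet and crypt levels of Cry1 were within each other's intervals. The Per genes rested on 3 to 22 UMI per gate there. Per3 was higher in goblet cells in both germ-free sets, from 12 UMI against 7 in each other gate, at a ratio of 5.36 (1.95 to 16.1) over colonocytes and 3.51 (1.27 to 10.5) over crypt cells. In germ-free set 3 that direction rested on 1 UMI of Per3 in goblet cells, against 1 in colonocytes and 0 in crypt cells. Per2 was found as 8 UMI in colonocytes and 14 in crypt cells, a ratio of 0.374 (0.136 to 0.956), all from germ-free set 4. For Per1 the interval of each ratio between gates included 1.

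**Figure D4:**
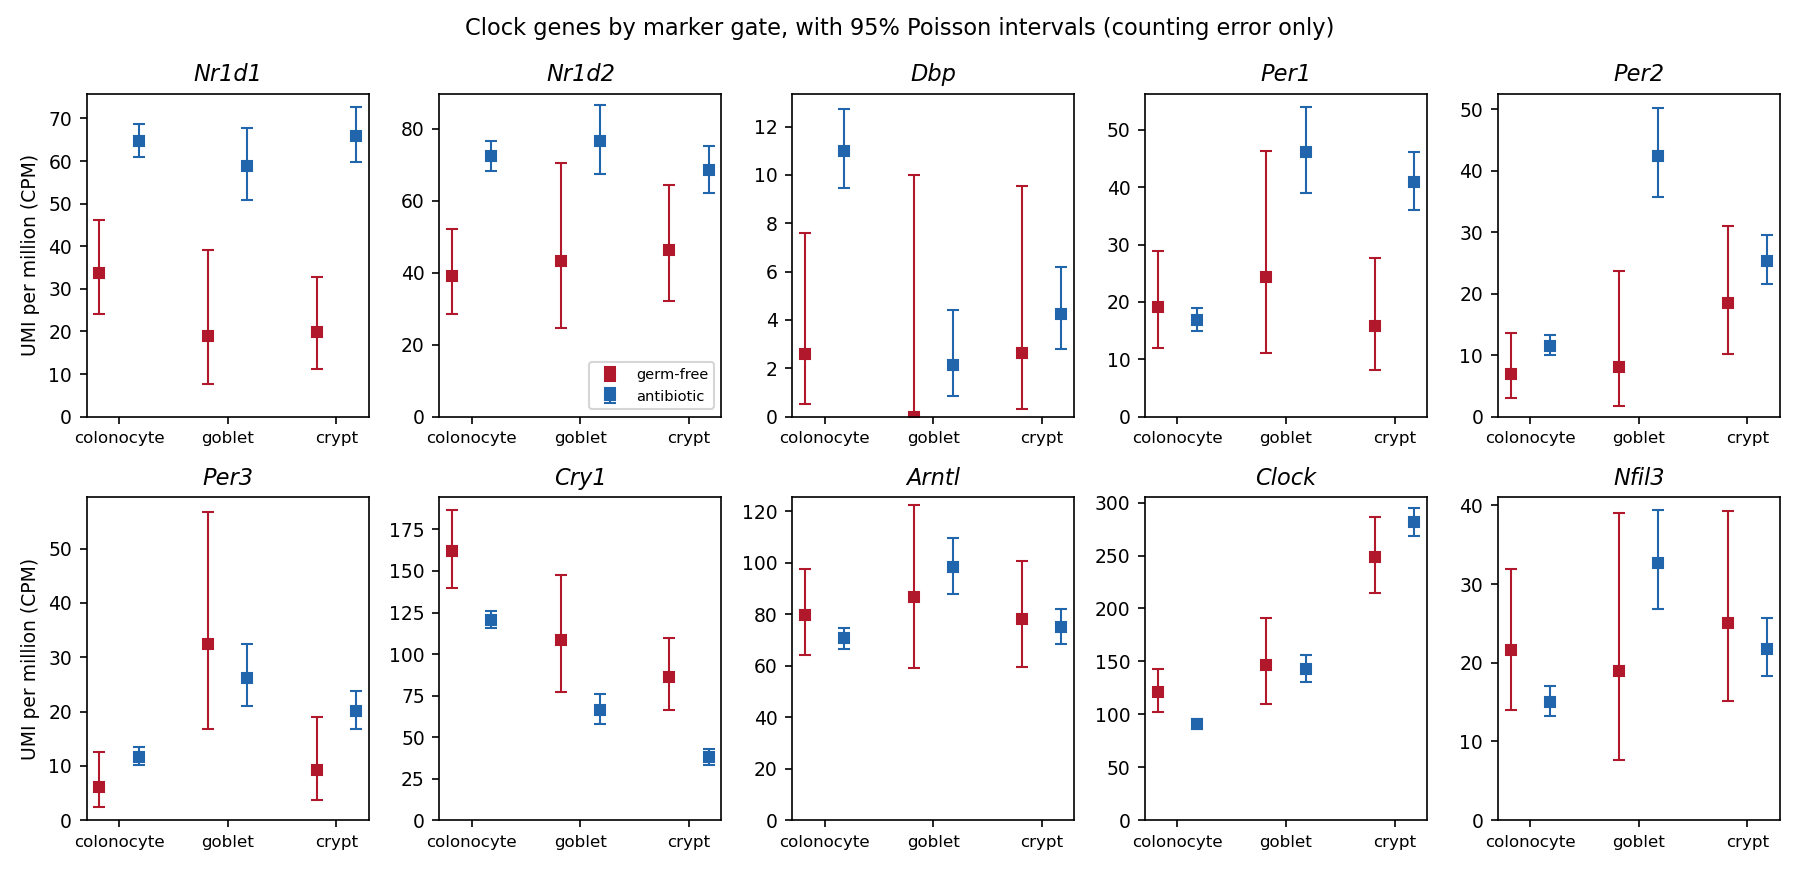
CPM of each clock gene (vertical axis, own scale per gene) in the colonocyte, goblet and crypt gates of germ-free cells (red, left of each pair) and antibiotic cells (blue, right), with 95% Poisson intervals for counting error. Clock is highest and Cry1 lowest in the crypt gate of both conditions, and Nr1d1 is lower in germ-free cells of each gate.

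Within each gate Nr1d1 was lower in the germ-free pool. In colonocytes it was at 33.8 CPM in germ-free cells (24.0 to 46.2) and 64.7 CPM in antibiotic cells (60.9 to 68.7), a log2 ratio of -0.92. That value passed 2-fold with a stricter gate margin, at -1.01, with means of per-cell values, at -1.07, and without germ-free set 4, at -1.37. In goblet cells it was at 19.0 CPM in germ-free cells (7.62 to 39.1) and 58.9 CPM in antibiotic cells (50.9 to 67.8), from 7 and 193 UMI. In crypt cells it was at 19.8 CPM in germ-free cells (11.1 to 32.7) and 66.0 CPM in antibiotic cells (59.8 to 72.6), a 3.33-fold lower level (1.99 to 6.00) at the 0.688 percentile. Germ-free cell set 3 gave only 3, 0 and 4 UMI of Nr1d1 in the colonocyte, goblet and crypt gates. In crypt cells its value of 46.0 CPM stood above the 16.4 CPM of germ-free set 4 and below the 53.1, 75.5 and 64.8 CPM of antibiotic sets 1, 2 and 3, and without germ-free set 4 the log2 ratio was -0.51. Relative to Arntl, Nr1d1 stood at 0.424 in germ-free and 0.917 in antibiotic colonocytes, at 0.219 and 0.599 in goblet cells, and at 0.254 and 0.878 in crypt cells.

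Cry1 was higher in germ-free crypt cells, the largest difference in that direction among the ranked clock genes of the 3 gates. Its levels were 69.0 and 88.1 CPM in crypt-gated cells of germ-free sets 3 and 4, against 44.8, 44.8 and 28.0 CPM in those of antibiotic sets 1, 2 and 3. The set values did not overlap, and the ratio was 2.27 (1.70 to 2.996), at the 98.9 percentile. Germ-free set 3 gave only 6 UMI, however, with an interval of 25.3 to 150 CPM that held every antibiotic value. Counting each cell with equal weight gave a log2 ratio of 0.69 in place of 1.16, and leaving out germ-free set 4 gave 0.85 and antibiotic set 3 gave 0.93, all under 2-fold. In goblet cells Cry1 had 104 and 109 CPM in the germ-free sets, against 73.4, 58.4 and 68.9 CPM in the antibiotic sets. The goblet value of germ-free set 3 also came from 6 UMI (38.2 to 226 CPM), an interval that again held the antibiotic values. In colonocytes the sets overlapped, at 138 and 165 CPM in germ-free and 143, 105 and 121 CPM in antibiotic sets.

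Per1 in crypt cells was lower in germ-free cells, at 15.9 CPM from 12 UMI (8.20 to 27.7), against 40.9 CPM in antibiotic cells (36.0 to 46.2). Its log2 ratio of -1.31 was -0.80 without germ-free cell set 4. In colonocytes it was 19.0 CPM in germ-free and 16.8 CPM in antibiotic cells, with overlapping intervals. Per2 in goblet cells was found as 3 UMI in germ-free cells, and its ratio to the antibiotic level was 0.191 (0.0390 to 0.571). Nr1d2 had log2 ratios of -0.88 in colonocytes, -0.81 in goblet cells and -0.56 in crypt cells. The colonocyte value was -0.34 when germ-free cell set 4 was left out. In colonocytes, 0 of 6 ranked clock genes were at least 2-fold lower or higher, against 3.33% and 2.70% of ranked genes. In goblet cells 2 of 8 were 2-fold lower (Nr1d1 and Per2), against 5.23%, and none was higher, against 2.50%. In crypt cells 3 of 9 were lower (Nr1d1, Per1 and Per3), against 3.41%, and 1 was higher (Cry1), against 1.73%. Each of the lower genes in goblet and crypt cells reached the 20 CPM limit in antibiotic cells alone, Per3 only just, at 20.04 CPM. These counts therefore rest in part on the filter. The Per3 value, a log2 ratio of -1.04, rested on 7 germ-free UMI, all from set 4, and was -0.88 without germ-free set 3, -0.95 without antibiotic set 1 and -0.93 without antibiotic set 2, all under 2-fold. The gates were not tested against each other, so a clock gene past 2-fold in 1 gate is not shown to differ between gates.

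Other genes of the clock, from a list of 15, were next to be set beside the 10. Of these 15, 7 were ranked, and 1 was at least 2-fold lower with cell sets apart, against 1.82%, and none higher, against 1.57%. Of the abundant ones, Cipc (an inhibitor of CLOCK) had 107 CPM in germ-free and 123 CPM in antibiotic cells, and Bhlhe40 (DEC1, an E-box repressor) had 85.5 and 118 CPM, both with cell sets apart. Npas2, which encodes a stand-in for CLOCK, overlapped at 88.7 and 79.7 CPM. Genes chosen after their values were seen were Cry2, Tef and Rora. Cry2, the second cryptochrome gene, had 12.4 and 19.6 CPM in germ-free sets, against 36.2, 38.9 and 36.4 CPM in antibiotic sets. Tef, a relative of Dbp too low to be ranked, had 4.96 and 6.67 CPM in germ-free sets, against 16.2, 19.4 and 17.1 CPM in antibiotic sets. Rora, which encodes ROR alpha, went the other way, with 24.8 and 23.4 CPM in germ-free sets, against 14.8, 10.8 and 13.5 CPM in antibiotic sets. At any size, 4 of the 7 were lower with cell sets apart, against 24.3% of ranked genes, and 1 was higher, against 28.9%, and their median log2 ratio was -0.21.

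Kinases and ubiquitin ligases that set the life of PER and CRY proteins were a list of 12, of which 10 were ranked. None of the 10 was past 2-fold with cell sets apart, against 1.82% lower and 1.57% higher among ranked genes. At any size 2 were lower, against 24.3%, and 2 higher, against 28.9%, at a median log2 ratio of 0.05. Csnk1a1 (casein kinase 1 alpha) had 365 CPM in germ-free and 495 CPM in antibiotic cells, and Csnk2a1 (a casein kinase 2 subunit) had 185 and 146 CPM, both with cell sets apart. Gsk3b, at 173 and 176 CPM, and Prkaa2 (a subunit of the energy sensor AMPK), at 174 and 154 CPM, overlapped. Of 7 corepressor genes whose products REV-ERB proteins recruit, 5 were ranked and none was past 2-fold. With cell sets apart 3 of the 5 were lower, against 24.3%, and none higher, against 28.9%, at a median log2 ratio of -0.11. Ncor1, the main REV-ERB corepressor gene, had 313 CPM in germ-free and 303 CPM in antibiotic cells, and Tbl1x had 128 and 126 CPM. Tbl1xr1 had 87.7 and 94.5 CPM and Gps2 26.8 and 37.6 CPM, with cell sets apart in both.

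Lipid genes linked to Nfil3 were a list of 6, of which 3 were ranked. All 3 were higher in the germ-free pool with no overlap of the cell sets, against 28.9% of ranked genes, and their median log2 ratio was 0.78. The list was chosen with earlier results of these data known, so this share is a description only. Fabp1, a fatty acid binding protein gene, was past 2-fold, against 1.57%, with 295 and 224 CPM in germ-free sets, against 47.1, 46.3 and 73.7 CPM in antibiotic sets. Scd2 (a desaturase) had 308 CPM in germ-free and 230 CPM in antibiotic cells, and Acsl1 (an acyl-CoA synthetase) had 28.1 and 15.9 CPM. Scd1 overlapped at 11.9 and 13.7 CPM, Cd36 had 2 and 3 UMI, and Fabp4 had none. Nfil3 itself was level between the conditions (ratio 1.02, above).

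Glucocorticoids are an input to peripheral clocks, and a list of 12 response genes was read for that reason. Of 10 ranked, 1 was 2-fold lower with cell sets apart, against 1.82%, and none higher, against 1.57%. At any size 3 were lower, against 24.3%, and 2 higher, against 28.9%, and the median log2 ratio was -0.11. Pdk4, a kinase gene that also answers to fasting, was the 2-fold one, with 29.8 and 25.9 CPM in germ-free sets, against 118, 98.4 and 104 CPM in antibiotic sets. Errfi1 had 303 CPM in germ-free and 457 CPM in antibiotic cells with cell sets apart. Fkbp5, a classic glucocorticoid target, overlapped at 225 and 232 CPM. Nr3c1 (the glucocorticoid receptor gene) had 182 and 144 CPM, and Hsd11b2 (which inactivates glucocorticoids) had 146 and 117 CPM, and both germ-free sets lay above the antibiotic ones in each.

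Of the immediate early genes, which respond to tissue dissociation, as Per1 also can, 9 of 14 ranked ones were lower in the germ-free pool with no overlap of the sets, against 24.3% of ranked genes. None was higher, against 28.9%. Their list of 16 summed to 3273 and 3296 CPM in germ-free sets, against 4612, 5007 and 4619 CPM in antibiotic sets. The median log2 ratio of the 14 was -0.57, and the sets of the other 5 (Fos, Dusp1, Zfp36, Nr4a1 and Btg2) overlapped. Jund was 2-fold lower, against 1.82%, at 264 CPM in germ-free and 619 CPM in antibiotic cells. Jun had 489 and 850 CPM and Atf3 519 and 719 CPM, with cell sets apart, and Fos overlapped at 583 and 649 CPM. The part of dissociation in the Nr1d1 difference was not tested.

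Over 13 profiles of cell set and gate with at least 100000 UMI each, some pairs of clock genes varied together or in opposition, and others did not. As a description of profiles that share pools and depth, Pearson's r of log2(CPM + 10) was 0.89 for Per1 and Per2 and 0.78 for Nr1d1 and Nr1d2. It was -0.80 for Per1 and Cry1 and -0.76 for Cry1 and Clock. As the profiles are the same sums by gate and cell set, these positive and negative values restate differences between gates and pools and add no separate evidence. The pairs given so far had the largest r in size. By contrast, r was 0.07 for Arntl and Clock, 0.01 for Cry1 and Arntl and -0.21 for Arntl and Nr1d1. Of all ranked genes the 3 most like Nr1d1 were Nfkbia (0.88), Dda1 (0.88) and Cdk8 (0.86), and those most like Nr1d2 were Gm11867 (0.93), Camk1d (0.89) and Vegfa (0.85). Cry1 was most like Flrt3 (0.93), Azi2 (0.93) and Arhgef5 (0.93), and Clock most like Xpo1 (0.99), Utp20 (0.98) and Map3k21 (0.98). Per1 went with AC149090.1, Tnrc6c and Taco1 (each 0.95), Per2 with Btrc (0.98), Foxp4 (0.96) and Brf1 (0.95), and Per3 with N4bp2l2 (0.97), Naip6 (0.95) and Osbpl2 (0.94). Arntl was most like Heca (0.91), Tbc1d32 (0.90) and Pip5k1b (0.88), and Nfil3 most like Rab28 (0.89), Rev1 (0.87) and Trpc4ap (0.86). All of these genes were picked for the highest r in a search of all ranked genes over 13 profiles, so their r is high by selection. Dbp had too few UMI for this comparison.

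**Figure D5:**
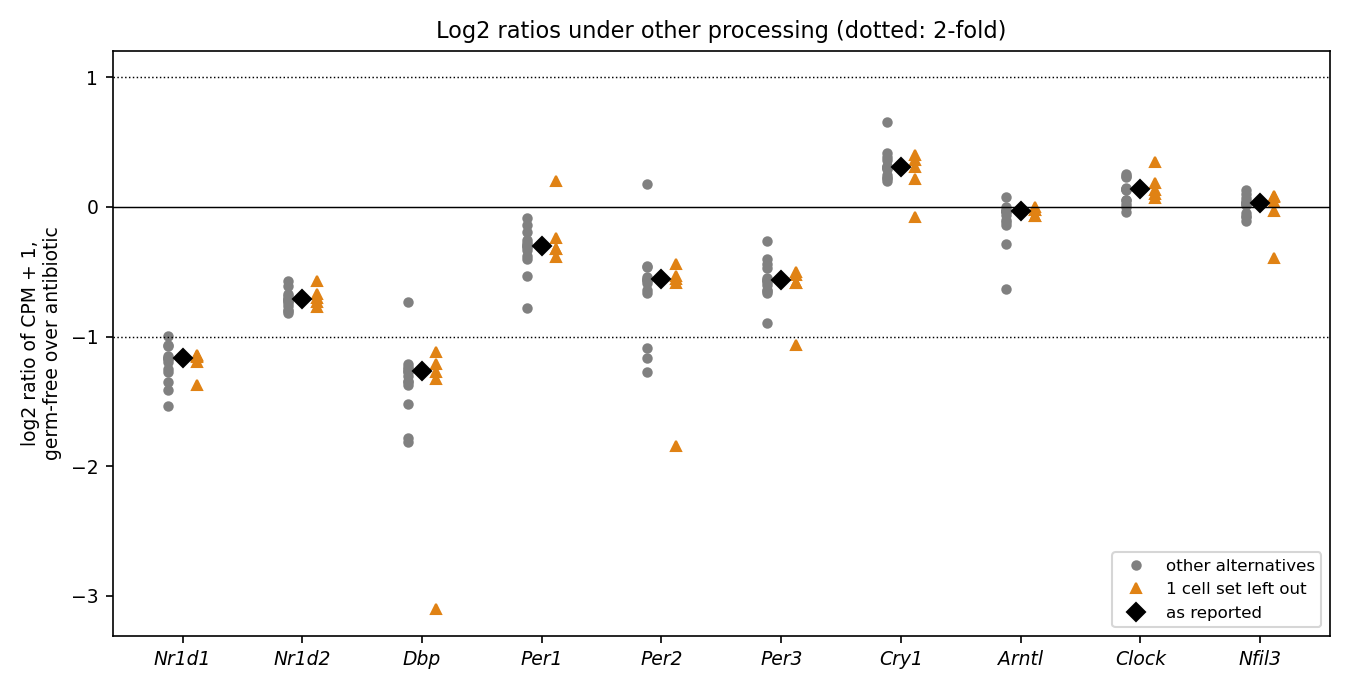
Log2 ratios of CPM + 1, germ-free over antibiotic (vertical axis), of each clock gene as reported (black), with 1 cell set left out (orange) and under the other alternatives (grey); dotted lines mark 2-fold. Nr1d1 spans -1.53 to -0.996 and Nr1d2 stays below 0, whereas Per1, Per2, Cry1, Arntl, Clock and Nfil3 have values on both sides of 0.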

How the data were processed

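Colon epithelial cells of 2 pools (3 antibiotic and 2 germ-free cDNA libraries) were measured, and 8 barcode libraries were not used. The authors deposited natural log values of 1 plus the UMI count scaled to 10000 per cell, as read from the values themselves. UMI counts came out whole, within 0.01, for 100% of 9481333 nonzero values. Cell Ranger 7.0.0, kallisto, bustools and mm10 appear in the submitters' processing notes, with no roles. Sources used here do not give the annotation, strand use or cell filters. Numbers in germ-free cell names do not match the library numbers, so cells were assigned to conditions and to numbered cell sets, not to libraries.

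UMI were summed per condition, scaled by total UMI to CPM and compared as log2(CPM + 1), which understates changes of low genes. With 1 pool per condition there is no test and no p-value: intervals (exact Poisson for levels, conditional binomial for ratios, exact Clopper-Pearson for shares, all 95%) cover counting error only and not differences between mice. A limit for a count of 0 is 3 UMI. Cell sets were apart where the lower of the germ-free values exceeded every antibiotic value, or the higher one was under all 3 of them. Mitochondrial, ribosomal protein, Xist, Tsix and Y genes were not ranked. As 20 CPM on 1 side sufficed, a low gene could be ranked only through the side where it was higher. Gating scored each cell by its mean z-score over the markers of a class, within a cell set, and put it in the top class if that score was above 0 and more than 0.2 above the next. Between gates, a call needed 2-fold and the same direction in every cell set; between conditions within a gate, 2-fold only. Scrublet (Scanpy 1.11.5) called 22 doublets (0.658% of cells), 13 in the germ-free pool, and they were kept.

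The members and lists were chosen with earlier results of these data known. Leaving out shallower copies of shared barcodes, the scoring rule of the gates and the 2 alternatives to the copies were chosen after the data were seen. Named genes are all 10 clock genes, up to 4 genes of each other list with the highest CPM, every list gene past 2-fold with cell sets apart, and the 3 genes most like each clock gene with at least 300 UMI. One list gene named by this rule is not reported here; its list is counted with it. Positions are from GENCODE vM21 (mm10) and promoter sequences from RefSeq (GRCm38.p6). The sums and intervals were tested on simulated data. Values were computed in Python 3.11.15 with SciPy 1.17.1, NumPy 2.4.6 and pandas 2.3.3, and drawn with matplotlib 3.10.9. Alternatives changed the scaling, pseudocount, cells, gates, low-count filter and cell sets, 1 at a time.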

Additional observations from a re-analysis of the deposited data

Results flagged for a closer look

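Nfil3 was lower in goblet than in crypt cells of the germ-free pool and higher in goblet than in crypt cells of the antibiotic pool, in every cell set. This was the only result kept from a search of all clock genes and all pairs of gates for opposite directions. With many comparisons and few cell sets, such an opposition can arise by chance. The log2 ratio, goblet over crypt, was -0.39 in germ-free and 0.56 in antibiotic cells, a difference of -0.95 that was not tested. In germ-free sets 3 and 4 the goblet levels were 17.3 and 19.3 CPM and the crypt levels 34.5 and 23.9 CPM. In antibiotic sets 1, 2 and 3 the goblet levels were 41.1, 25.02 and 33.7 CPM and the crypt levels 18.6, 17.1 and 27.6 CPM. The germ-free goblet value rests on 7 UMI, of which set 3 gave 1, and the germ-free crypt value on 19, of which set 3 gave 3. As a plain ratio of CPM, goblet over crypt was 0.755 (0.268 to 1.88) in the germ-free pool. That interval includes 1, so the germ-free direction is within counting error.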

How the results depend on the processing

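No paired analysis was possible because each condition was 1 pool and no result comes from a test. The count of clock genes at least 2-fold lower was 1 as reported, 2 with means of per-cell values, cells thinned to 1000 UMI, equal weight of the gates or a looser filter on low counts (at least 10 UMI), 0 in the stricter cells, and 1 to 2 with a cell set left out (2 without germ-free set 4). Those lower at any size were 3, but 5 with the looser filter, 2 in stricter cells, and 4 with means of per-cell values, equal gates or no cell of a shared barcode, and 3 to 4 with a cell set left out (4 without germ-free set 3 or antibiotic set 2). Those higher at any size were 0, but 2 in stricter cells, 1 with totals without mitochondrial genes, thinned cells, equal gates or no cell of a shared barcode, and 0 to 2 with a cell set left out (2 without germ-free set 4, 1 without germ-free set 3 or antibiotic set 1). Nr1d1 gave a log2 ratio of -1.53 in thinned cells and otherwise -1.42 to -0.996. The log2 ratio of its quotient with Arntl, germ-free over antibiotic, was -1.16. That quotient gave -0.95 in stricter cells and -0.93 in thinned cells, both under 2-fold, and -1.39 with equal gates. Keeping every deposited cell gave -1.17 for Nr1d1 and leaving out every cell of a shared barcode -1.15. Per2 gave -1.27 with means of per-cell values, -1.09 thinned, 0.17 in stricter cells and -1.17 with equal gates; Arntl gave -0.63 thinned; Dbp without germ-free set 4 gave -3.10, fitted to a count of 0. Of all ranked genes, 116 were 2-fold lower and 100 higher. Means of per-cell values gave 124 and 245. They were 177 and 158 in stricter cells, 216 and 308 thinned, 373 and 462 with the looser filter, and 110 to 492 and 88 to 458 with a cell set left out, the most without germ-free set 4. Scaling moved the split: 89 lower and 135 higher without mitochondrial genes, 147 and 82 with median-of-ratios scaling. The median of all ranked genes was then 0.15 and -0.06, against 0.05. The cause of these changes was not tested, beyond fewer UMI or genes by construction. Depth limits germ-free set 3 most, where 3 UMI are 7.44 CPM.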
